A study of Mus musculus with 6 samples.

Results

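The 10 genes described here encode the machinery that presents peptides on MHC class I molecules. They are the heavy chains H2-K1 and H2-D1, their light chain B2m, the peptide transporter subunits Tap1 and Tap2, the loading-complex proteins Tapbp, Calr and Pdia3, the trimming peptidase Erap1 and the class I transactivator Nlrc5. The genes were taken by symbol from the deposited table of normalized reads. All 10 were found among its 23725 rows, and all 10 were among the 12837 genes that passed the filter on low values. RNA was compared between colonic epithelial cells of C57BL/6J mice labelled wild type (3 libraries) and of mice labelled B6-Cg-Nr3c1-Vil-Cre/ERT2 or Nr3c1IEC-/- (3 libraries), in which the glucocorticoid receptor gene Nr3c1 was deleted by a tamoxifen-activated Cre recombinase under the villin promoter of intestinal epithelium. Tamoxifen was given intraperitoneally on 5 consecutive days to both groups, and the cells were enriched on a Percoll gradient 7 days after the first injection. Ages, the deleted part of Nr3c1 and whether the wild-type mice carried the Cre transgene are not given in the labels. The labels do not say that each library came from a separate animal, so p-values measure the spread between these libraries.

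Class I molecules show samples of a cell's own proteins to CD8 T cells. Proteasomes cut cytosolic proteins, the TAP transporter of Tap1 and Tap2 carries the peptides into the endoplasmic reticulum, and Erap1 trims them there. Tapasin (Tapbp), calreticulin (Calr) and the disulfide isomerase ERp57 (Pdia3) hold the pair of heavy chain and B2m until a peptide is bound. Calreticulin and ERp57 also fold many other glycoproteins. Interferons raise many of these genes through IRF1 and NLRC5, and NLRC5 acts at a promoter module of W/S, X1, X2 and Y boxes that class I genes share.

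The sequences below are shown because H2-K1, H2-D1 and B2m carry parts of that module. RefSeq promoter windows of 300 bases (250 before to 50 after a transcript start, GRCm38.p6) were in the table used for 8 of the 10 members, all but Tap2 and Nlrc5. Each stretch is 30 bases long and is written 5′ to 3′ on the gene's strand. In the first pair the capitals mark a match to the NF-kB letters GGGNNTTCC, searched on both strands, which 5.82% of all 32851 windows and of the members only H2-K1 and H2-D1 held. These stretches lie at chr17:34000429-34000458 on the minus strand and at chr17:35262923-35262952 on the plus strand, and they differ by the single substitution A18T, counted from 1 at the 5′ end with the base of H2-K1 first.
H2-K1 NF-kB stretch: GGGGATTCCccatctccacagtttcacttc
H2-D1 NF-kB stretch: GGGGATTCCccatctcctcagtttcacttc

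In the next set the capitals mark an X2 box (TGACG) and a Y box (ATTGG) with 20 bases between them. They lie at chr17:34000359-34000388 (minus strand), chr17:35262993-35263022 (plus strand) and chr2:122147609-122147638 (plus strand). TGACG alone was in 20.81% of all windows and ATTGG alone in 37.41%, on either strand. The arrangement with 20 bases between was searched after these windows had been read. Over these 30 bases H2-D1 differed from H2-K1 at 7 and B2m differed from H2-K1 at 17. The arrangement was in 31 of the 32851 windows (0.09%), which belong to 27 genes, and of the members in H2-K1, H2-D1 and B2m. Of the 22 of these genes that were tested, 1 rose (H2-D1) and 1 fell (Ghitm, named after its values were seen). Over all genes tested 15.0% rose and 15.4% fell.
H2-K1 X2 to Y: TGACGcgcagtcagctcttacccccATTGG
H2-D1 X2 to Y: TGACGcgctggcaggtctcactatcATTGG
B2m X2 to Y: TGACGacctccggatctgagtccggATTGG

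The core of the interferon-stimulated response element (TTTC, any 2 bases and TTTC, on either strand, 3.44% of all windows) was matched in B2m, shown in capitals at chr2:122147538-122147567 on the plus strand, and in Erap1. The H2-K1 and H2-D1 windows held no match to these letters. Both NF-kB stretches printed above do end in tttcacttc, which lacks a T of the searched letters. Other forms of the element were not searched. The glucocorticoid response element (GNACA, any 3 bases and TGTNC, 0.47% of all windows) had no match in the members' windows. These matches are letters in a window, with no measurement of binding.
B2m interferon element: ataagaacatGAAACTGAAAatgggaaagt

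Recovered reads numbered 10089313 to 12030844 per library. Nr3c1 was at 144.7, 123.1 and 174.7 normalized reads in the libraries labelled knockout. It was at 1120 and 967.1 in wild type 1 and wild type 2, but at 196.7 in the library labelled wild type 3, which goes against its label. Nr3c1 fell by 2.03 on the log2 scale (SE 0.60, limma adjusted p = 0.0372), and by 2.82 without wild type 3, while leaving out any 1 of the other 5 libraries ended the call. The exact permutation p was 0.1, the smallest that 3 against 3 libraries allow. Of 12837 genes tested 3910 changed, which is 30.5%, with 1931 raised (15.0%) and 1979 lowered (15.4%). The epithelial marker gene Epcam was at 18255 to 21874 normalized reads in all 6 libraries. Cdh1 and Krt8, epithelial markers named after their values were seen, had log2 changes of 0.1 and 0 and did not pass the threshold. Of the 16 epithelial markers 2 rose and 4 fell. The keratin gene Krt20 rose from 16247 ± 2804 to 31958 ± 2914, while the goblet cell mucin gene Muc2 fell from 28352 ± 8880 to 9662 ± 1363 and the colonocyte carbonic anhydrase gene Car1 from 143867 ± 31220 to 39006 ± 24048 (limma adjusted p = 0.0074, 0.00616 and 0.0116). The others, named after their values were seen, were Vil1, which rose, and Cdx1 and Cdx2, which fell (adjusted p = 0.0134, 0.0179 and 0.0275), and all 3 lost their call without wild type 1 or wild type 2, as did Cdx2 without knockout 3 (adjusted p from 0.0571 to 0.0986). In these bulk samples, fewer cells of a type and less RNA per cell cannot be told apart.

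Of the 10 class I genes 5 rose in the knockout libraries and 0 fell (limma). At an unadjusted p under 0.05 the numbers were 8 and 0, beside 22.1% raised and 22.4% lowered of all genes tested. At the adjusted threshold edgeR raised 5 and DESeq2 7, beside 1887 and 2148 of the 12837 genes tested, and both lowered 0. The genes raised with limma were H2-D1, Calr, Pdia3, Tapbp and Nlrc5, a share of 50% beside 15.0% over all genes tested. The median log2 change of the 10 was 0.76, beside 0.01 over all genes tested. Of the 10, 5 were higher in every knockout library than in any wild-type library (H2-K1, H2-D1, Tapbp, Calr and Pdia3), as were 25.2% of all genes tested. Leaving out wild type 1, wild type 2, knockout 1 or knockout 3 left 3 raised each time (H2-D1, Calr and Pdia3), leaving out the library labelled wild type 3 left 4, and leaving out knockout 2 gave 7. The log2 changes below are on the scale log2(value + 1), knockout minus wild type.

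**Figure D1:**
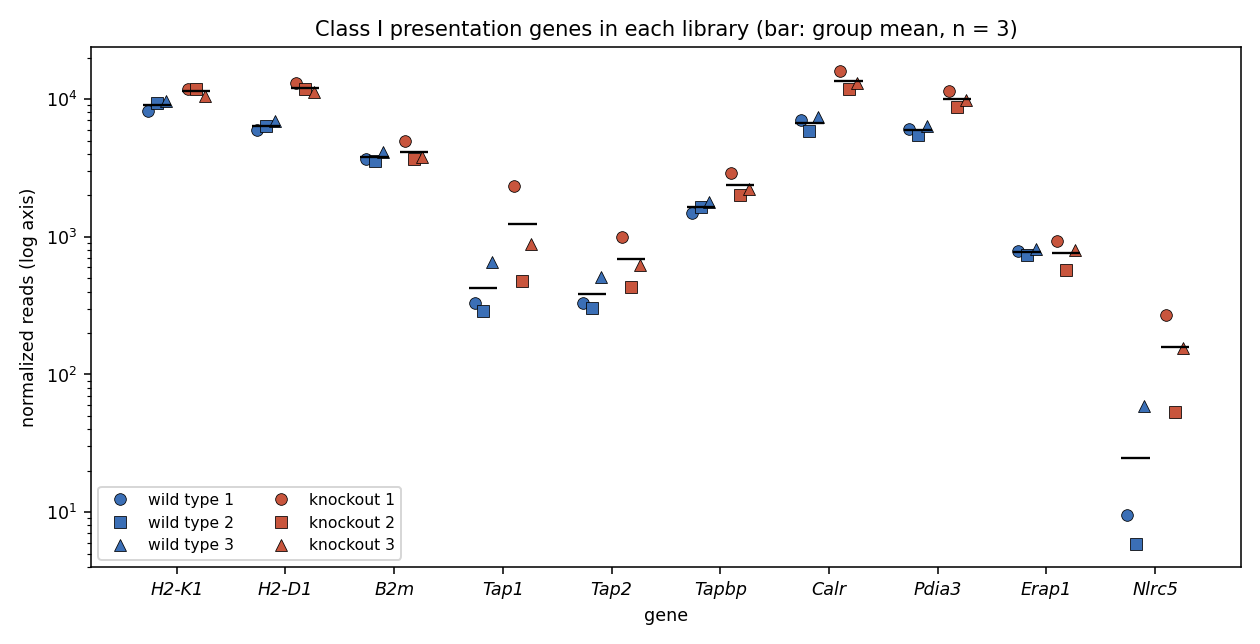
Normalized reads (log axis) of the 10 class I genes in each of the 6 libraries, with horizontal bars at the group means (n = 3). H2-D1, Calr and Pdia3 form separate groups, whereas Tap1, Tap2 and Nlrc5 in the library labelled wild type 3 lie above knockout 2.

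The heavy chain genes are the polymorphic part of the class I molecule that binds the peptide. H2-D1 (Entrez 14964, GRCm38 chromosome 17, 35263094 to 35267497) was at 5947, 6383 and 6945 normalized reads in wild type 1, 2 and 3 and at 13205, 11779 and 11323 in knockout 1, 2 and 3. The 3 knockout libraries were close to each other and all well above the wild-type ones. H2-D1 rose 1.88-fold, from 6425 ± 500 to 12102 ± 982 (SD, n = 3), with a log2 change of 0.91 (SE 0.13, limma adjusted p = 0.00301). Its log2 change stayed between 0.85 and 0.97 with any 1 library left out.

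H2-K1 (Entrez 14972, chromosome 17, 33996012 to 34000619) had a smaller difference. Its promoter stretches printed above lie inside this span, because their window was placed at a transcript start within it. H2-K1 was at 8188.5, 9335 and 9744 normalized reads in the wild-type libraries and at 11757, 11794 and 10600 in the knockout libraries. The groups did not overlap, but the gap between wild type 3 and knockout 3 was narrow. The log2 change was 0.33 (SE 0.13, limma adjusted p = 0.0934), and 1.25-fold in the means. DESeq2 on the recovered reads gave an adjusted p of 0.0412 for H2-K1, and edgeR 0.106.

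B2m (Entrez 12010, chromosome 2, 122147687 to 122153082), the light chain shared by all classical class I molecules, was at 3684, 3545 and 4154 normalized reads in the wild-type and at 5005, 3703 and 3768 in the knockout libraries. Only knockout 1 lay above the wild-type range. The log2 change of B2m was 0.12 (SE 0.15, limma adjusted p = 0.552), and -0.02 without knockout 1. B2m lies inside the gene body of Patl2, which was at 0 in every library.

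The balance between these subunits was compared within each library, per kb of exon, as 1 of 9 ratios. The ratio of H2-K1 to H2-D1 was 1.75, 1.86 and 1.78 in the wild-type and 1.13, 1.27 and 1.19 in the knockout libraries. The ratio of H2-D1 to B2m was 0.66, 0.737 and 0.684 in the wild-type and 1.08, 1.3 and 1.23 in the knockout libraries. Neither ratio overlapped between the groups, and each had a two-sided exact permutation p of 0.1, the smallest possible, or 0.257 after Benjamini-Hochberg adjustment over the 9 ratios. The ratio of H2-K1 to B2m did overlap, with 1.15 to 1.37 in the wild-type and 1.22 to 1.65 in the knockout libraries (exact permutation p = 0.2). A ratio shows unequal change, not which of the genes changed, and it does not depend on library scaling.

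**Figure D2:**
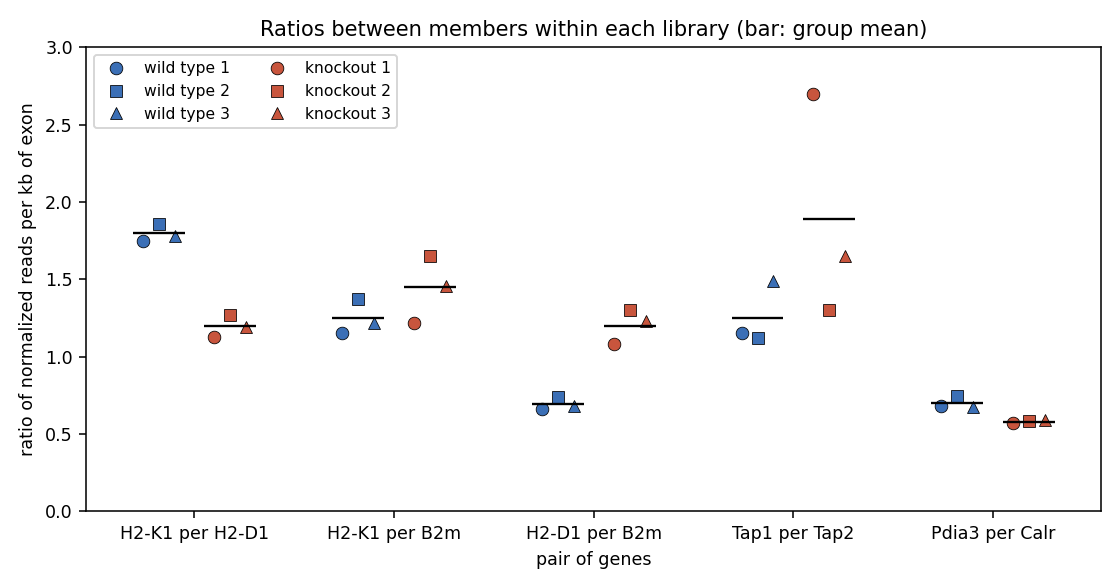
Ratios of normalized reads per kb of exon between pairs of class I genes in each library, with bars at the group means. The knockout libraries have a mean ratio of H2-K1 to H2-D1 of 1.2 against 1.8 in wild type, and of H2-D1 to B2m of 1.2 against 0.694.

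Heavy chain reads are partly ambiguous. Of the 50-base windows of the longest GENCODE M21 coding transcript, 14.3% for H2-D1 and 8.8% for H2-K1 also occur in a transcript of another gene, the leading ones being H2-Q1 and H2-D1. The same share was 0 for B2m, Pdia3 and Nlrc5 and 0.5% for Calr. The read length is not given in the sources used here, and how the counting treated shared reads is not either.

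The 3 chaperones of the loading complex rose together. Calr (Entrez 12317, chromosome 8, 84842088 to 84846931) was at 7025, 5820 and 7420 normalized reads in the wild-type and at 16007, 11772 and 13118 in the knockout libraries. It rose 2.02-fold with a log2 change of 1.01 (SE 0.16, limma adjusted p = 0.00485). Pdia3 (Entrez 14827, chromosome 2, 121413902 to 121438687) was at 6099, 5503 and 6342 and at 11541, 8699 and 9806. It rose 1.67-fold with a log2 change of 0.74 (SE 0.14, limma adjusted p = 0.00895). For both genes knockout 1 was the highest library and even the lowest knockout library lay well above every wild-type one. Over the 6 libraries their log2 levels had a Pearson r of 0.997, a description of points that share library and group. The ratio of Pdia3 to Calr was 0.684, 0.746 and 0.674 in the wild-type and 0.568, 0.583 and 0.589 in the knockout libraries (exact permutation p = 0.1, adjusted 0.257).

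Tapbp (Entrez 21356, chromosome 17, 33919478 to 33929290), which bridges the heavy chain to the TAP transporter, was at 1482, 1652 and 1793 normalized reads in the wild-type libraries. In the knockout libraries it was at 2921, 2021 and 2232, with no overlap. Tapbp rose 1.46-fold with a log2 change of 0.53 (SE 0.16, limma adjusted p = 0.0373). The call was lost with wild type 1, 2 or 3 or knockout 1 or 3 left out (limma adjusted p = 0.132, 0.105, 0.0537, 0.0575 and 0.0643) and with quantile normalization (0.0527). Of the windows of the Tapbp transcript 21% also occur in transcripts of other genes, mostly of the overlapping antisense gene Gm19412, and the libraries keep no strand.

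**Figure D3:**
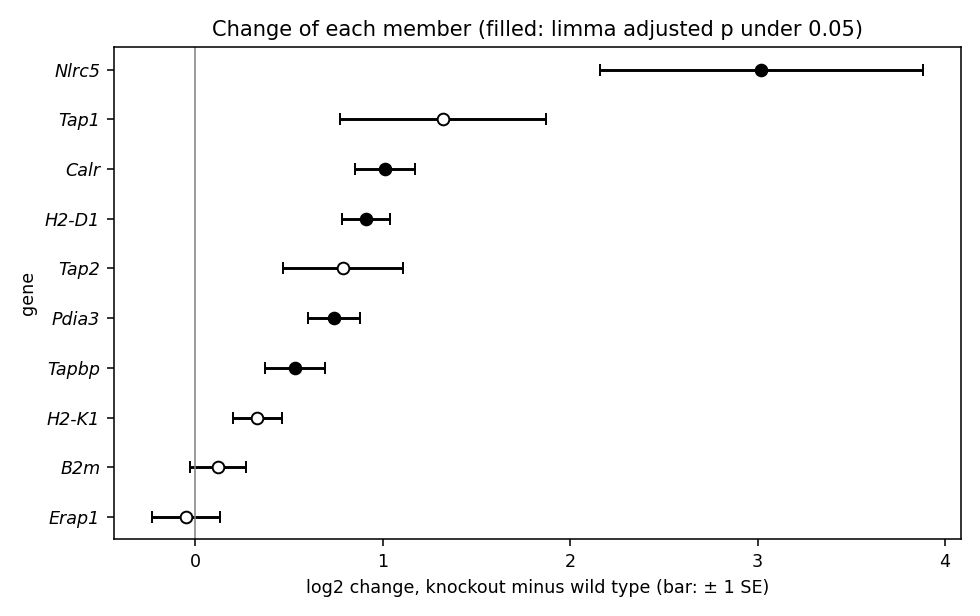
Log2 change, knockout minus wild type, of each class I gene with 1 SE on either side, and filled points where the limma adjusted p is under 0.05. Nlrc5 has the largest change (3.02) and also the largest SE (0.86), and Tap1 at 1.32 is past Calr, H2-D1, Pdia3 and Tapbp in size without passing the threshold.

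The peptide transporter genes varied more between libraries of 1 group. Tap1 (Entrez 21354, chromosome 17, 34187556 to 34197225) was at 328, 291.4 and 653.9 normalized reads in the wild-type libraries. In the knockout libraries it was at 2326, 479.1 and 885. The wild-type mean was 424.4 ± 200 and the knockout mean 1230 ± 971, with a log2 change of 1.32 (SE 0.55, limma adjusted p = 0.102). The library labelled wild type 3 lay above knockout 2, and knockout 1 stood far above the rest. The log2 change was 0.71 without knockout 1 and 1.85 without knockout 2 (limma adjusted p = 0.201 and 0.0281).

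Tap2 (Entrez 21355, chromosome 17, 34204479 to 34216321) had the same order of libraries. It was at 331.2, 304.1 and 512.7 normalized reads in the wild-type and at 1004, 428.4 and 624.4 in the knockout libraries. The log2 change of Tap2 was 0.79 (SE 0.32, limma adjusted p = 0.0951), 0.47 without knockout 1 and 1.09 without knockout 2 (adjusted p = 0.206 and 0.0303). Tap1 and Tap2 had the highest Pearson r of any pair of the 10 genes, 0.997 over the 6 libraries and equal to that of Calr and Pdia3 to 3 digits. The ratio of Tap1 to Tap2 per kb of exon was 1.12 to 1.49 in the wild-type and 1.3 to 2.7 in the knockout libraries, with overlap (exact permutation p = 0.2, adjusted 0.257). The ratio of Tap1 to Tapbp overlapped as well, at 0.173 to 0.358 and 0.233 to 0.782 (exact permutation p = 0.2, adjusted 0.257). Of the Tap2 transcript's windows 12.6% and of the Tap1 transcript's 6.5% are shared with other genes, for Tap1 mainly with Psmb9, which starts next to it on the other strand.

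Nlrc5 (Entrez 434341, chromosome 8, 94434335 to 94527272) was the least abundant of the 10. It was at 9.6, 5.9 and 59.2 normalized reads in the wild-type and at 269.4, 53.8 and 154.7 in the knockout libraries. Again the library labelled wild type 3 lay above knockout 2. Nlrc5 rose 6.4-fold in the means, from 24.87 ± 29.8 to 159.3 ± 108, with a log2 change of 3.02 (SE 0.86, limma adjusted p = 0.0344). Without the library labelled wild type 3 the change was 3.96 (adjusted p = 0.00837). The call was lost without wild type 1, wild type 2, knockout 1 or knockout 3 (adjusted p = 0.112, 0.111, 0.0776 and 0.0908).

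Erap1 (Entrez 80898, chromosome 13, 74639573 to 74693205) did not pass the threshold, with 788.6, 731.4 and 813.3 normalized reads in the wild-type and 936.1, 570.1 and 797.2 in the knockout libraries. The knockout libraries lay on both sides of the wild-type ones. The log2 change was -0.05 (SE 0.18, limma adjusted p = 0.856). Of its transcript's windows 14% are shared with Cast, whose gene overlaps the end of Erap1 and which was at 2002 to 3694 normalized reads.

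**Figure D4:**
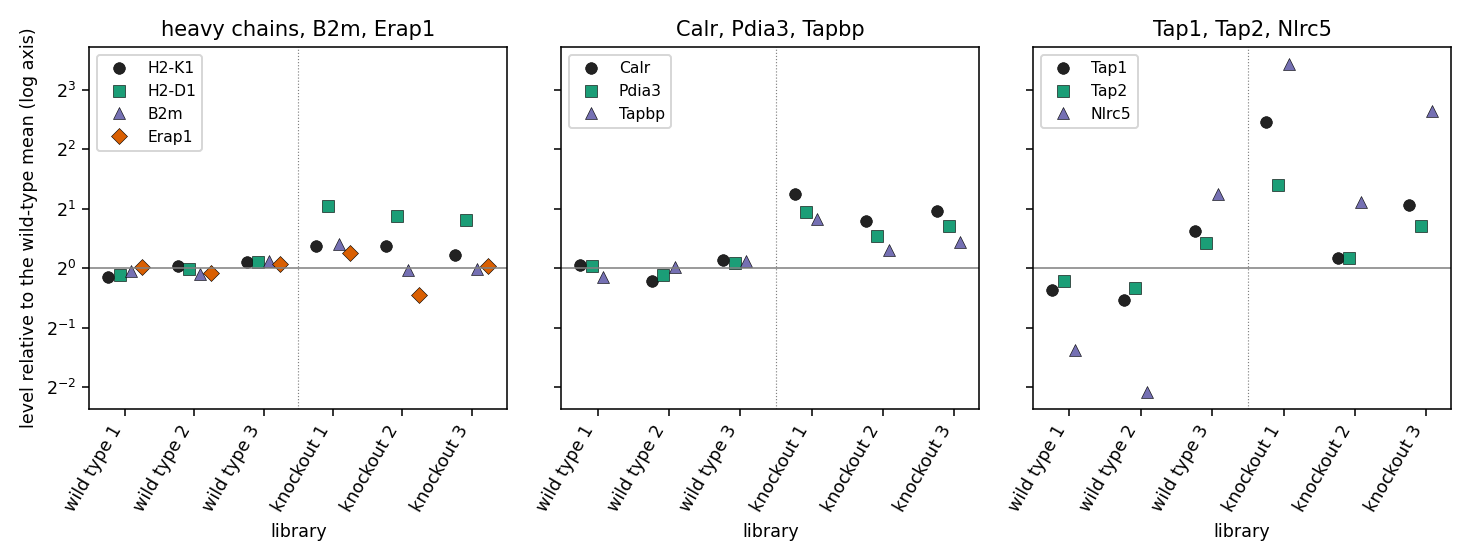
Level of each class I gene divided by its own wild-type mean (log axis) in the 6 libraries. H2-D1 is at 1.76 to 2.06 in the knockout libraries, while Tap1 goes from 1.13 in knockout 2 to 5.48 in knockout 1 and is at 1.54 in the library labelled wild type 3.

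Per kb of exon, the order of levels in the wild-type libraries was H2-K1 (4948 to 5887 normalized reads per kb), B2m (4122 to 4830), Calr (2665 to 3397), H2-D1 (2829 to 3304), Pdia3 (1987 to 2290), Tapbp (511 to 619), Tap1 (98.7 to 221), Erap1 (130 to 144), Tap2 (88.4 to 149) and Nlrc5 (0.723 to 7.29). Neighbours whose ranges overlapped were Calr and H2-D1, Tap1 and Erap1, and Erap1 and Tap2. In the knockout libraries Calr (5390 to 7329 per kb) and H2-D1 (5387 to 6282) came before B2m (4306 to 5819), with ranges that overlapped. H2-K1 stayed first at 6405 to 7126 per kb, a range that lay inside that of Calr.

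The genes most like the 10 were found by the Pearson r of their log2 levels with the mean standardised profile of the members, over 6 libraries and 10229 candidates. Among the closest were the keratin gene Krt6a, the protein phosphatase inhibitor gene Ppp1r2, the G protein signalling regulator gene Rgs1 and Cdv3, each at 0.994. Krt6a was at 6.4, 8.8 and 21.9 normalized reads in the wild-type and at 316.6, 37.2 and 67.8 in the knockout libraries. As for Tap1, the library labelled wild type 3 was the highest of its group and knockout 1 of the other, but here the groups did not overlap.

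Among nonclassical heavy chains and class I-like molecules, 6 of 15 tested genes were raised (40%, beside 15.0% of all genes) and 2 were lowered. H2-Q7, which gives rise to the Qa-2 antigen, rose from 336 ± 21.4 to 662.2 ± 105 normalized reads and H2-T24 from 275.7 ± 4.61 to 449.5 ± 50.4 (limma adjusted p = 0.00317 and 0.00633). H2-T3, the thymus leukaemia antigen of intestinal epithelium that binds the CD8 alpha homodimer, went the other way. It was at 627.3, 866.4 and 519.1 in the wild-type and at 49.3, 60 and 74.5 in the knockout libraries, a log2 change of -3.42 (SE 0.23, limma adjusted p = 0.000261). The other lowered gene, chosen for naming after its values were seen, was Fcgrt, the heavy chain of the neonatal Fc receptor (763.6 ± 237 to 371.2 ± 83.7, adjusted p = 0.0271). Only 1.3% of the windows of H2-T3 and 3.2% of those of H2-T24 are shared with other genes, but 34.9% for H2-Q7, so its reads are uncertain. The same holds for H2-Q4 (39.2%) and H2-Q1 (22.9%), raised genes of this list named after their values were seen. H2-T3 was also the 1 gene of the list called with the covariate of immune and stromal markers (log2 change -3.13, adjusted p = 0.0492). Fcgrt lost its call without wild type 1, wild type 2 or knockout 1 (adjusted p = 0.0979, 0.0964 and 0.0529), and without wild type 1 only 3 genes of the list rose.

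Of 17 genes of peptide supply, proteasome subunits, their activators and cytosolic peptidases, 9 rose (52.9%, beside 15.0% of all genes tested) and 0 fell (limma), with 12 and 0 at an unadjusted p under 0.05 (22.1% and 22.4% of all genes) and 0 lowered by edgeR or DESeq2. The oligopeptidase gene Thop1, which destroys peptides, rose from 461.3 ± 51.2 to 1189 ± 230, the aminopeptidase gene Npepps from 985 ± 38.9 to 1558 ± 243, and the activator gene Psme3 from 916.3 ± 41.2 to 1292 ± 168 (limma adjusted p = 0.00174, 0.00997 and 0.0198). The immunoproteasome subunit genes Psmb8 and Psmb9 did not pass the threshold (adjusted p = 0.0706 and 0.121). Psmb8 was at 188.9, 90.9 and 348.8 in the wild-type and at 1082, 284.5 and 539.4 in the knockout libraries, and Psmb9 at 195.3, 125.2 and 294.2 and at 730.7, 224.5 and 362.8. In both the library labelled wild type 3 was above knockout 2, as in Tap1, and without knockout 2 both passed (adjusted p = 0.0319 and 0.0423), as did Psmb8 without wild type 3 (0.0394). Per kb of exon, the ratio of each immunoproteasome subunit to its constitutive counterpart overlapped between the groups, for Psmb8 to Psmb5 (0.0653 to 0.217 and 0.145 to 0.452), for Psmb9 to Psmb6 (0.0874 to 0.18 and 0.108 to 0.293) and for Psmb10 to Psmb7 (0.702 to 0.913 and 0.753 to 1.13), with exact permutation p of 0.2, 0.4 and 0.3 (adjusted 0.257, 0.4 and 0.337). Leaving out wild type 1 or wild type 2 left 2 raised genes, and the number was 4 without the library labelled wild type 3, 5 without knockout 1 and 5 with quantile normalization, and Psme3 lost its call without wild type 1 or wild type 2 (adjusted p = 0.0764 and 0.078).

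Of 20 genes of peptide loading, glycan control and export 7 rose (35%, beside 15.0% of all genes tested) and 1 fell. The translocon subunit genes Sec61b (941.8 ± 67.2 to 1617 ± 192) and Sec61g (681.6 ± 95.5 to 1249 ± 133) and the disulfide isomerase gene P4hb (8363 ± 381 to 15172 ± 1495) had limma adjusted p of 0.00407, 0.00448 and 0.00412. Tapbpl, a peptide editor related to tapasin and named after its values were seen, rose from 335.5 ± 55.3 to 741 ± 251 (adjusted p = 0.0132). The number raised was 3 without wild type 1, where Tapbpl lost its call (adjusted p = 0.0568), and 4 without wild type 2. Of 20 other endoplasmic reticulum chaperones and folding genes, 3 of which are also in that list, 7 rose (35%) and 1 fell. The oxidase gene Ero1a rose from 642.4 ± 61.9 to 1794 ± 257 and Creld2 from 340.4 ± 42.7 to 1005 ± 529 (adjusted p = 0.000707 and 0.0131). Without wild type 1 the number raised was 4, and without wild type 2 it was 2, with Creld2 no longer called (adjusted p = 0.0537).

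Of 27 transcription factors and interferon signalling genes that act on class I genes 7 rose (25.9%, beside 15.0% of all genes tested) and 0 fell (limma), with 9 and 2 at an unadjusted p under 0.05 (22.1% and 22.4% of all genes) and 1 lowered by edgeR and by DESeq2. The deISGylase gene Usp18 rose from 39.21 ± 5.91 to 217.3 ± 129, the receptor gene Ifnar2 from 32.37 ± 7.48 to 72.35 ± 20.3 and Stat2 from 439.8 ± 65.4 to 773.5 ± 155 (limma adjusted p = 0.0047, 0.0213 and 0.0139). Of the 27, 10 were higher and 3 lower in every knockout library than in any wild-type library (25.2% and 25.5% of all genes). The 3 lower ones, named after their values were seen, were Rela, Rfxank and Rfx5. Their means went from 1232 to 859, 502.7 to 399.8 and 157.3 to 126.4. With limma adjusted p of 0.0515, 0.0565 and 0.139, none of these 3 passed the threshold. Irf1, which binds class I promoters, was at 1306, 1188 and 2001 in the wild-type and at 3080, 1163 and 2542 in the knockout libraries (adjusted p = 0.299), so that knockout 2 was the lowest of the 6. Without knockout 2 the adjusted p of Irf1 was 0.0252. The number raised was 2 without wild type 1, 1 without wild type 2 and 3 without knockout 3. Calls were lost for Stat2 without wild type 1 or wild type 2 (adjusted p = 0.0604 and 0.0547), and for Ifnar2 without wild type 2, wild type 3 or knockout 1 (0.0679, 0.0578 and 0.0512).

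Of 28 tested interferon-induced genes outside antigen presentation 13 rose (46.4%, beside 15.0% of all genes tested) and 0 fell (limma), with 21 and 1 at an unadjusted p under 0.05 (22.1% and 22.4% of all genes) and 0 lowered by edgeR or DESeq2, and the median log2 change was 2.17. Oasl2, Oasl1 and Ifit1 had the smallest adjusted p (0.00165, 0.00244 and 0.00267). Usp18, a raised gene of this list, is also in the regulator list above and is counted in both. Without knockout 2 the number raised was 23. Summed over this list the normalized reads were 4728, 4927 and 6318 in the wild-type and 29344, 8003 and 12401 in the knockout libraries, so knockout 1 was the highest and the library labelled wild type 3 the highest of its group. Of 9 tested MHC class II genes 0 changed with limma or edgeR, 1 had an unadjusted p under 0.05, and 1 rose with DESeq2. In each case the gene was H2-Eb1, which encodes a class II beta chain (limma adjusted p = 0.101, DESeq2 adjusted p = 0.0416). The median log2 change of the class II list was 0.78, beside 0.76 for the class I members and 0.01 over all genes tested. The class II transactivator gene Ciita was at 4.9 to 33.7 in the wild-type and at 3.1 to 41.9 in the knockout libraries. Without the library labelled wild type 3, 3 class II genes rose, and without knockout 2 1 did (H2-Eb1, adjusted p = 0.0488).

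**Figure D5:**
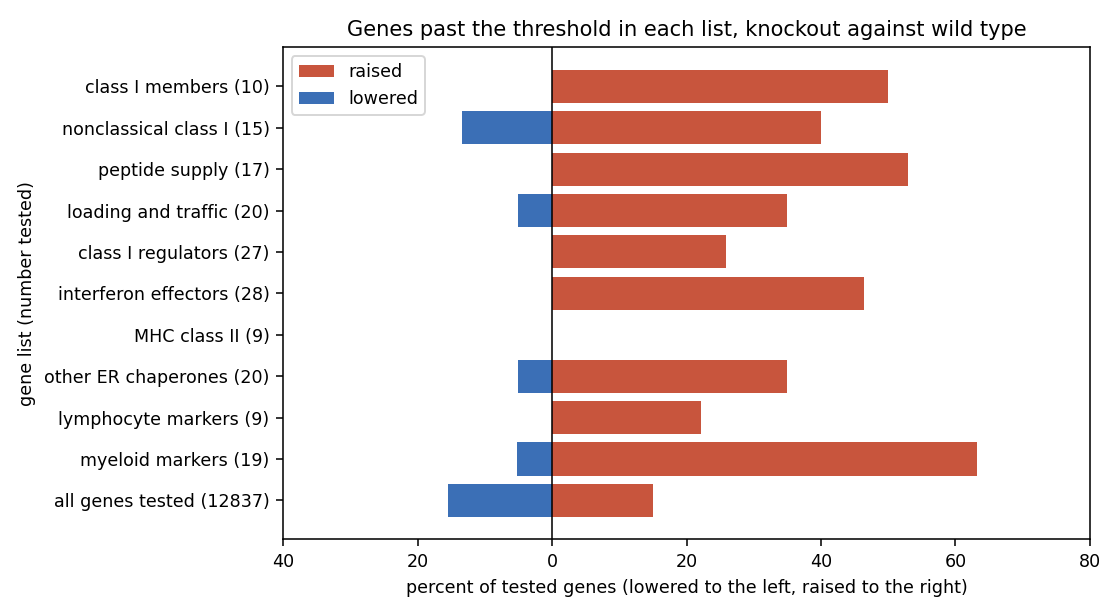
Percent of tested genes raised (right) and lowered (left) in the knockout libraries for 10 gene lists and all genes tested, with the number tested in brackets. The class I members (50% raised) and peptide supply genes (52.9%) are beside 15% for all genes tested, and the MHC class II list has no call.

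Leukocytes carry high class I levels. Of 19 tested myeloid markers 12 rose (63.2%, beside 15.0% of all genes tested) and 1 fell. Their summed level over all 22 in the table was 1005 to 1610 normalized reads in the wild-type and 3739 to 9069 in the knockout libraries, with knockout 1 the highest. S100a8 and S100a9 gave 2129 and 2330 of the sum in knockout 1. The gene that fell, named after its values were seen, was Kit (limma adjusted p = 0.0057). Kit gave 253.2 to 449.8 of the wild-type sums and 32.5 to 95.2 of the knockout sums. Mcpt1, a raised gene also named after its values were seen, was at 1.1 to 6.8 in the wild-type and 25.9 to 189.7 in the knockout libraries. It passed the filter only through the knockout libraries. Among myeloid genes named after their values were seen, Itgam and Csf1r rose and Adgre1 did not pass the threshold (limma adjusted p = 0.0127, 0.036 and 0.173). Whether these reads came from myeloid cells was not tested. Of 9 tested lymphocyte markers 2 rose (22.2%, beside 15.0% of all genes tested). They were Cd52 (6.8 to 15.5 in the wild-type and 47.7 to 69.2 in the knockout libraries) and Ptprc (33.2 to 50.1 and 100.4 to 251.6). Lck went the other way without passing the threshold (40.1 to 45.5 and 14.5 to 31.4, no overlap, limma adjusted p = 0.0679). At an unadjusted p under 0.05, 2 of the lymphocyte markers rose and 1 fell. The sum over the 26 lymphocyte markers was 230.8 to 404.4 and 374.6 to 793.6. The T cell marker Cd8a was at 0 to 13.7 and 6.2 to 15.3. Of genes named after their values were seen, the T cell receptor gene Cd3e was at 2.1 to 4.6 and 6.2 to 7.3, the B cell gene Cd79a at 1 to 2.7 and 0 to 7.6, Cd8b1 at 37.2 to 48.3 and 40.9 to 56.9, and the antibody joining chain gene Jchain at 7.8 to 71 and 43.5 to 171.8. Of 11 tested stromal markers 2 rose (18.2%, near the 15.0% of all genes) and 0 fell. The sums over 18 overlapped between the groups, at 757.8 to 1306 and 1100 to 2791. Of stromal genes named after their values were seen, Col1a1 overlapped (15.9 to 103.8 and 35.2 to 286.2). Pecam1 was lower in every knockout library (18.2 to 27.4 and 7.3 to 15.3, limma adjusted p = 0.055).

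The mean log2 level of the 39 tested immune and stromal markers was 4.57, 5.08 and 5.45 in the wild-type and 6.88, 5.8 and 6.44 in the knockout libraries. The mean standardised profile of the class I genes was -0.84, -0.91 and -0.15 and 1.41, 0.01 and 0.49, so that in both measures knockout 1 was the highest, followed by knockout 3 and knockout 2. With this marker level as a covariate 0 of the 10 class I genes and 44 of all genes passed the threshold. The log2 changes were then 0.67 for H2-D1, 0.66 for Calr, 0.41 for Pdia3 and 0.19 for H2-K1, but -0.90 for Tap1, -0.61 for Erap1, -0.47 for Tap2, -0.28 for B2m, -0.13 for Nlrc5 and -0.02 for Tapbp (limma adjusted p = 0.379, 0.509, 0.67, 0.888, 0.647, 0.499, 0.729, 0.792, 0.987 and 0.989). Marker level and genotype had a correlation of 0.858, so within 6 libraries they cannot be told apart well, and the part of these cells in the class I values was not tested.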

How the data were processed

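The deposited values are a signal, namely read counts of each gene that the authors had scaled by 1 factor per library, as the steps of the values show. The submitters' processing notes name FastQC, TopHat, DESeq2 and mm10, with no roles or versions. The libraries were non-stranded TruSeq mRNA, per the labels' protocols. Which counter and annotation were used is not given in the sources used here. In every column 100% of the values were whole multiples of 1 step within 0.001, so reads were recovered. Of 23725 Entrez rows 23666 matched a RefSeq symbol of GRCm38.p6, the assembly mm10 was made from.

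Differences were tested with limma 3.58.1 under R 4.3.3, with a trended prior, on log2(value + 1). The filter asked for 10 normalized reads in 3 or more libraries and left 12837 genes, with Benjamini-Hochberg adjustment over all of them and a threshold of 0.05. A gene under 10 in every library of 1 group could therefore pass through the other group alone. Alternatives were edgeR 4.0.16 and DESeq2 1.42.0 on recovered reads, pseudocounts, filters, scalings, weights, a marker covariate and leaving out each library. The fits were also run on simulated data. Far fewer genes were changed there than were called here, and no library was set apart from its group. That run therefore cannot show how the fits behave on these libraries. No pair of libraries of 1 group agreed within sampling noise (chi-square per degree of freedom 14.2 to 53.9). Levels per kb use the union of exons in GENCODE M21. Replicate numbers are names in accession order.

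The members and all gene lists were chosen with earlier results of these data known, and the 9 ratios and the X2 to Y spacing were added after the data were seen. Named genes are the members, up to 3 genes per list with the smallest adjusted p, a few genes fixed by name (Psmb8, Psmb9, Irf1, Ciita, Ptprc, Cd8a, Epcam) and the 5 genes most like the members, and other genes are said to be named after their values were seen. A gene that this rule names is not reported here.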

Additional observations from a re-analysis of the deposited data

How the results depend on the processing

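No paired analysis was possible because the labels give no replicate numbers that could tie libraries of both groups to each other. H2-D1, Calr and Pdia3 kept their direction and their call in all alternatives except the marker covariate. Under that covariate 44 of all genes changed, and 0 class I, nonclassical, peptide supply, loading, regulator, interferon-induced or other chaperone genes rose. The covariate also gave 1 lowered nonclassical gene, 0 lowered loading genes, 0 lowered other chaperones and a log2 change of Nr3c1 of -0.79 (limma adjusted p = 0.882). It reversed Tap1 (-0.90), Tap2 (-0.47), B2m (-0.28), Nlrc5 (-0.13) and Tapbp (-0.02). Among other genes it reversed Psmb8 (-0.27), Psmb9 (-0.53), Irf1 (-0.91), H2-Eb1 (-0.49) and Ciita (-3.15). With 1 library left out the log2 change of B2m was -0.02 to 0.20, of Erap1 -0.20 to 0.15, of Ciita -0.28 to 1.42 and of Epcam -0.12 to 0.01. With quantile normalization 5 peptide supply genes rose, and 1 regulator and 2 other chaperones fell. With TMM 2 regulators and 2 other chaperones fell. With DESeq2 1 class II gene rose, and 1 regulator and 2 other chaperones fell. With edgeR 1 regulator fell. With library weights 1 interferon-induced gene and 2 other chaperones fell, and without a filter 0 loading genes fell. The cause of these differences was not tested.

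With 1 library left out, the genes changed numbered 1923 to 3607, the class I members raised 3 to 7, nonclassical genes raised 3 to 5 and lowered 1 to 3, and peptide supply genes raised 2 to 9. Loading genes raised numbered 3 to 7 and lowered 0 to 1, regulators raised 1 to 8 and lowered 0 to 1, and interferon-induced genes raised 10 to 23 and lowered 0 to 1. Class II genes raised numbered 0 to 3, and other chaperones raised 2 to 9 and lowered 0 to 1. The log2 change of Nr3c1 was -2.82 to -1.57 and lost its call without wild type 1, wild type 2, knockout 1, knockout 2 or knockout 3 (limma adjusted p = 0.121, 0.125, 0.0631, 0.0816 and 0.0733). No scaling moved the median of all genes by over 0.1, and none of the 10 members was lowered under any alternative.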

Other observations

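Other surface ligands that lymphocytes read on epithelial cells were measured as a further list. Of 11 tested genes 1 rose (9.09%) and 1 fell, beside 15.0% raised and 15.4% lowered of all genes tested. The gene that rose was Lgals9, the gene of the lectin galectin-9, from 1143 ± 225 to 2244 ± 489 normalized reads (limma adjusted p = 0.00959). The gene that fell was Btnl1, a butyrophilin-like gene of intestinal epithelium known to maintain gamma-delta intraepithelial T cells. Btnl1 was at 1085, 1612 and 877 in the wild-type and at 22, 94.2 and 74.5 in the knockout libraries, a log2 change of -4.39 (SE 0.50, limma adjusted p = 0.00145), with no overlap between the groups. Raet1d, a ligand gene of the NKG2D receptor, was at 3.9 to 7.4 in the wild-type and at 11.5 to 14.7 in the knockout libraries (limma adjusted p = 0.0559). It passed the filter on low values only through the knockout libraries, so its p-value is no support for a difference.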
